A study of Mus musculus with 24 samples.

Results

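Hepatic bile acid synthesis was followed in 24 mouse liver libraries, with 10 genes. They were Cyp7a1, Cyp8b1, Cyp27a1, Cyp7b1, Akr1d1, Slc27a5 and Baat, which encode enzymes of the pathway, and Nr1h4, Nr0b2 and Fgfr4, which encode regulators of it. The genes were taken by symbol from a fixed list, and all 10 were found among the 24411 genes of the count files. The study compared the livers of mice with and without the cell cycle repressors E2f7 and E2f8, at rest and after an overdose of acetaminophen (APAP), using poly(A) RNA of whole liver. All mice were males of about 2.5 months with a mixed, mostly FVB background that carried floxed E2f7 and E2f8 and the R26R-mTmG reporter. All were fasted for about 16 h before collection at 0 h or before the APAP dose. Feeding after the dose is not described in the sources used here. Feeding and APAP therefore cannot be told apart in changes from 0 h.

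In the first cohort, control littermates without Cre (labelled WT) were set beside liver-specific knockout mice (LKO, labelled KO), in which Alb-Cre deletes both genes for life in cells of the hepatocyte lineage, with 4 single-mouse libraries per genotype at 0 h. In the second cohort, floxed mice received AAV8-TBG-Cre at 2 months, which restricts Cre to hepatocytes of the adult (HKO, labelled CRE), or the empty virus AAV8-TBG-Null (NULL), with 3 single-mouse libraries each at 0 h. After 300 mg/kg APAP, control and LKO livers were sampled at 12, 24, 48, 72 and 96 h as 1 library per genotype and time, each made from the pooled RNA of 3 mice. The pools therefore carry no spread between mice.

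Bile acids are made from cholesterol in hepatocytes. In the classical route Cyp7a1 performs the rate-limiting 7-alpha-hydroxylation and Cyp8b1 the 12-alpha-hydroxylation that leads to cholic acid, while Cyp27a1 and Cyp7b1 open the alternative route through oxysterols. Akr1d1 reduces the steroid ring, and Slc27a5 and Baat activate bile acids with coenzyme A and conjugate them with taurine or glycine. Synthesis is restrained by bile acids themselves, which bind the nuclear receptor FXR (Nr1h4). FXR induces SHP (Nr0b2) in liver and, in the intestine, the hormone Fgf15, which signals to the hepatocyte through Fgfr4, and both arms lower Cyp7a1 transcription.

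The libraries held 12665686 to 19499897 reads on genes (median 16500386), and levels are given as CPM, that is, relative to the TMM-scaled total of each library. Before that scaling a floor of 3 counts equals 0.154 to 0.237 CPM. The reads of members were far above this floor, with Cyp7a1 in the control pool at 24 h the lowest at 2.46 CPM. The 9 hepatocyte markers found in the files, of 10 listed, summed to 59576 to 143301 CPM over the libraries. E2f8 transcripts, counted over the whole gene and so also outside the deleted part, did not check the deletion. They stood at 11.6 to 18.7 CPM in control, 17.6 to 34.2 CPM in LKO, 15.2 to 26.4 CPM in NULL and 30.7 to 83.9 CPM in HKO mice at 0 h. Whole-gene E2f8 was thus not lower in the libraries labelled LKO or HKO, and after APAP it was called higher in the LKO pools (log2 fold change 1.53, edgeR adjusted p = 0.0237). The study's check of E2f8 used reads of single exons, which were not analysed here, and genotypes are taken from the labels. E2f7 was near the detection limit in all groups at 0 h (highest 1.34 CPM).

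Of the 6 members with a window in the RefSeq table, which do not include Cyp7a1, the promoters of 3 are printed because of differences described here: Cyp8b1, whose transcript differed between the genotypes after APAP, Nr0b2, whose transcript fell furthest at 12 h, and Akr1d1, whose transcript was lower in each HKO mouse than in each NULL mouse. Each line gives the 250 bases before the RefSeq transcription start, 5′ to 3′ on the strand of the gene (GRCm38.p6), with capitals for motif letters found on either strand. The windows are chr9:121916306-121916555 (minus strand) for Cyp8b1, chr4:133553126-133553375 (plus strand) for Nr0b2 and chr6:37529923-37530172 (plus strand) for Akr1d1.
Cyp8b1: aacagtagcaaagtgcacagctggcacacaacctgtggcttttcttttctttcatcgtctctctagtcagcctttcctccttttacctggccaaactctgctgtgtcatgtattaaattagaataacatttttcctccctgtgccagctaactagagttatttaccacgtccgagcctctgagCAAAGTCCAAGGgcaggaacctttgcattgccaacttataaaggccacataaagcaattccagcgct
Nr0b2: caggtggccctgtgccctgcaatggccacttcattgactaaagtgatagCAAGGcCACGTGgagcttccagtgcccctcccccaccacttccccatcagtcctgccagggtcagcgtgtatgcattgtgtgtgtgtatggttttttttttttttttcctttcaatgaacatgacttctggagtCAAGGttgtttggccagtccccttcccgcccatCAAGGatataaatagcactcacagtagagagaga
Akr1d1: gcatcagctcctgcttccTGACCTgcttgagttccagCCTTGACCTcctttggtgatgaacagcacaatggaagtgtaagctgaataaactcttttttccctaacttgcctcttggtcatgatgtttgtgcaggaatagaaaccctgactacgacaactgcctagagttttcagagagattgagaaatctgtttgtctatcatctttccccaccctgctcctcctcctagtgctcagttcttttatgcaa
In Cyp8b1, CAAAGTCC, a core of the HNF4 direct repeat, began 67 bases before the start and shared 1 base with CAAGG, a short LRH-1 site, at -60. Nr0b2 held CAAGG at -201, -67 and -34 and the E box CACGTG at -195. Akr1d1 held the nuclear receptor hexamer AGGTCA on the opposite strand at -232 and -210, the latter overlapping CAAGG at -213. Over 32851 promoter windows of 300 bases in the same table, searched on both strands, CAAAGTCC was present in 1.42%, CACGTG in 7.15%, AGGTCA in 16.3% and CAAGG in 52.1%. The longer LRH-1 site CAAGGTCA (1.56% of windows) and the D box core TTATGTAA (0.938%) were searched as well and were in none of the 6 members with a window in the table. These matches describe letters in the window only.

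In control livers at 0 h the members spanned a wide range of levels. Per kilobase of exon, the mean level was highest for the ligase Slc27a5 at 434 ± 35.3 CPM per kb (SD, n = 4), followed by Cyp27a1 at 275 ± 44.9, Cyp7b1 at 235 ± 190.4, Baat at 156 ± 15.5 and Cyp8b1 at 147 ± 63.8 CPM per kb. The regulators and the remaining enzymes were lower, at 51.1 ± 16.5 for Nr0b2, 41.7 ± 6.02 for Nr1h4, 36.8 ± 10.2 for Akr1d1, 17.4 ± 12.2 for Cyp7a1 and 16.5 ± 3.81 CPM per kb for Fgfr4. Only Slc27a5 and Cyp27a1 did not overlap between neighbours in this order. The spread between mice also differed between the genes, with coefficients of variation of 81.1% for Cyp7b1, 70.0% for Cyp7a1 and 43.5% for Cyp8b1 but 8.14% for Slc27a5.

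**Figure D1:**
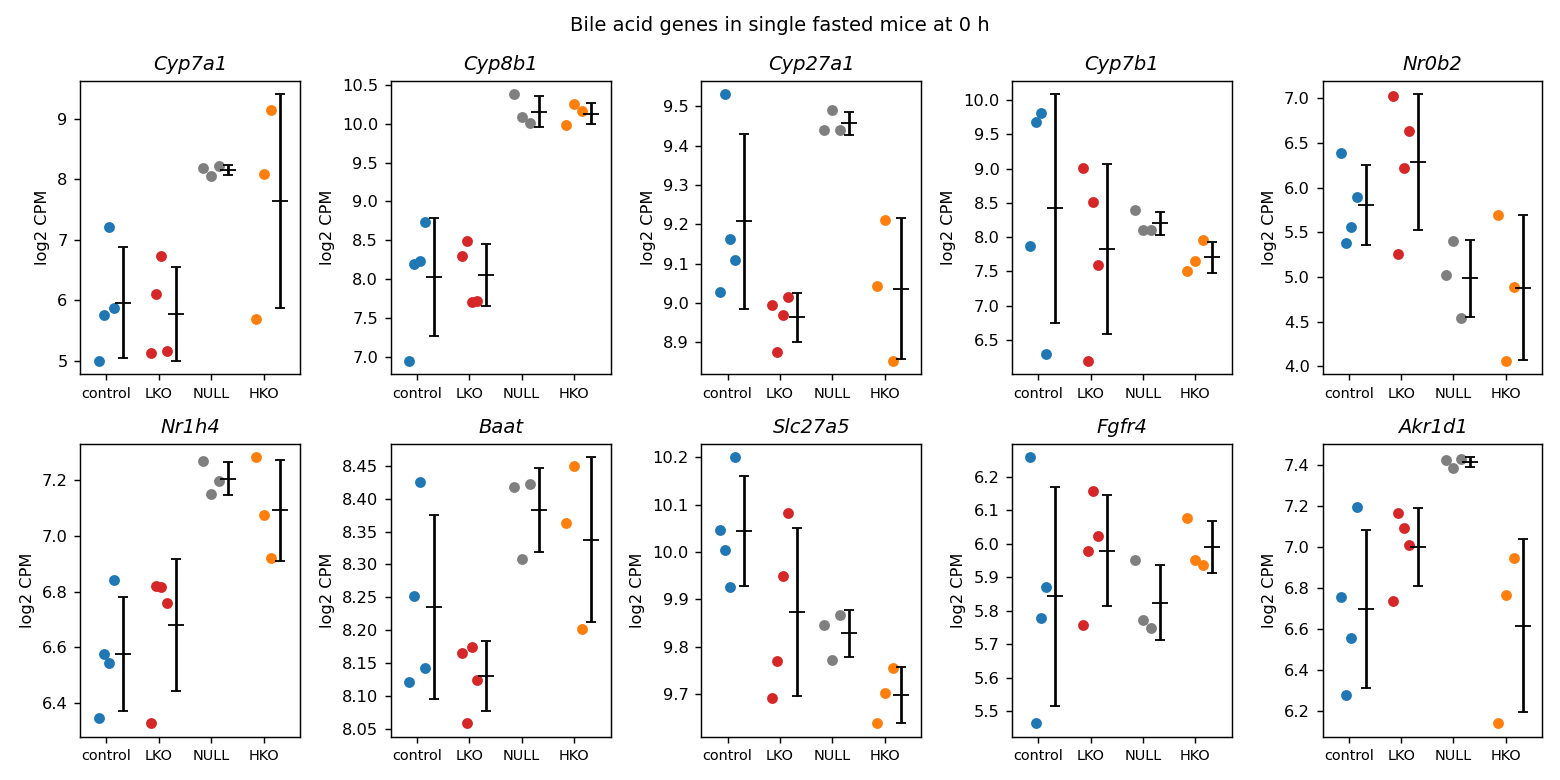
Levels of the 10 genes at 0 h, in log2 CPM (vertical axis), with 1 point per mouse for control and LKO (n = 4 each) and for NULL and HKO (n = 3 each) and a black mark with bars for mean ± SD beside each group. Cyp7a1 and Cyp8b1 sat higher in NULL than in any control mouse, and Cyp27a1 and Akr1d1 sat lower in every HKO mouse than in any NULL mouse.

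The LKO livers were compared with their control littermates at 0 h, without APAP. The paper reports that LKO hepatocytes are mostly diploid and those of control mice mostly polyploid. Deletion and ploidy therefore cannot be told apart in this comparison. Cyp7a1 (chr4:6265612-6275633, minus strand, GENCODE vM21 on GRCm38) was at 31.8, 53.7, 147 and 58.3 CPM in the 4 control mice and at 34.8, 68.5, 106 and 35.5 CPM in the 4 LKO mice. The groups overlapped over nearly their whole range, and the log2 fold change was -0.24 (95% interval -1.27 to 0.79). Cyp8b1 (chr9:121914356-121916305, minus strand) was at 124, 293, 300.2 and 427 CPM in control and at 316, 359, 209 and 211 CPM in LKO mice, a log2 fold change of -0.06 (-0.78 to 0.66). Cyp7b1 (chr3:18071950-18243338, minus strand) varied most, with 78.7 to 897 CPM in control and 73.1 to 517 CPM in LKO mice. Nr0b2 (chr4:133553376-133556536, plus strand) was at 83.5, 41.4, 47.2 and 59.4 CPM in control and at 131, 38.2, 74.1 and 99.1 CPM in LKO mice, a log2 fold change of 0.56 (-0.18 to 1.30). The largest values of Nr0b2 were in LKO mice, but the lowest was too.

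No member passed the test in this comparison, and neither did any of the 12426 genes tested (0.00% called by the edgeR quasi-likelihood test, where a call needed a Benjamini-Hochberg adjusted p under 0.05 with a change of 1.5-fold or more). Without adjustment 352 genes had p under 0.05, none of them a member, and DESeq2 called 3 genes and no member. The remaining members had log2 fold changes between -0.82 (Cyp7b1, -2.38 to 0.75) and 0.28 (Akr1d1, -0.15 to 0.70). Nr1h4 (0.11), Fgfr4 (0.12), Baat (-0.10) and Slc27a5 (-0.16) lay within this range. The intervals of Cyp7a1, Cyp8b1 and Cyp7b1 include changes of more than 1.5-fold in either direction, so those differences were not resolved at this number of mice. Cyp27a1 (chr1:74713574-74737892, plus strand), the sterol 27-hydroxylase, did not overlap between the groups, at 522 to 739.5 CPM in control and 469 to 518 CPM in LKO mice (log2 fold change -0.25, -0.56 to 0.06). No other of the 10 members lacked overlap, which compares with 1.85% of all genes tested.

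In the second cohort the empty virus was set against Cre, which addresses deletion in the adult liver. Akr1d1 (chr6:37530173-37568815, plus strand), the 5-beta-reductase, was at 172, 167 and 173 CPM in NULL mice and at 70.4, 109 and 123 CPM in HKO mice. Every HKO mouse was thus below every NULL mouse, with a log2 fold change of -0.74 (SE 0.18, edgeR adjusted p = 0.100). Cyp27a1 was at 694, 719 and 695 CPM in NULL and at 528, 592 and 462 CPM in HKO mice, with a log2 fold change of -0.40 (SE 0.11, edgeR adjusted p = 0.149). Cyp7b1, the oxysterol 7-alpha-hydroxylase, was at 336, 274 and 276 CPM in NULL and at 182, 200.4 and 249 CPM in HKO mice, with a log2 fold change of -0.48 (SE 0.14, edgeR adjusted p = 0.173). Slc27a5 (chr7:12988346-12998192, minus strand) did not overlap either, at 874 to 933 CPM in NULL and 796 to 864 CPM in HKO mice.

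No member was called among the 119 called genes of 12397 (0.960%). An unadjusted p under 0.05 was found for 3 members and for 1598 of all genes tested. Akr1d1 was called under 3 of the alternatives, namely DESeq2 (adjusted p = 0.00347), no filter on low counts (0.0317) and a replicate block (0.0393), and its adjusted p ranged from 0.00347 to 0.290 over all 14. The 4 members without overlap, all lower in HKO, compare with 18.0% of all genes tested without overlap in either direction. Cyp7a1 showed the widest spread of any member, at 291, 267 and 297 CPM in NULL mice but 51.5, 271 and 562 CPM in HKO mice. The 3 HKO mice lay below, within and above the NULL mice, and the log2 fold change of 0.07 carried an interval from -1.29 to 1.42. Cyp8b1 was close in both groups, at 1331, 1084 and 1031 CPM in NULL and 1010, 1217 and 1145 CPM in HKO mice (log2 fold change -0.02, -0.31 to 0.28). The log2 fold changes of the other members were 0.02 for Nr0b2 (-0.79 to 0.82), -0.09 for Nr1h4 (-0.34 to 0.15), -0.03 for Baat (-0.25 to 0.19), -0.12 for Slc27a5 (-0.33 to 0.10) and 0.18 for Fgfr4 (-0.05 to 0.40). The circadian clock genes, which set the daily rhythm of Cyp7a1 in liver, moved in this comparison, with 6 of 15 called. Arntl rose (2.24) and Dbp (-2.70), Per3 (-2.40), Per2 (-1.66), Tef (-1.18) and Nr1d2 (-0.72) fell on the log2 scale, and the part of this in the members' values was not tested.

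Whether LKO and HKO effects differed was tested directly with an interaction term over the 14 mice at 0 h. Akr1d1 gave the largest difference among the members, 1.02 on the log2 scale (0.39 to 1.65), with an unadjusted edgeR p of 0.00344 and an adjusted p of 0.775. The others were at 0.55 for Nr0b2, 0.20 for Nr1h4, 0.15 for Cyp27a1, -0.05 for Cyp8b1 and Slc27a5, -0.06 for Fgfr4, -0.08 for Baat, -0.31 for Cyp7a1 and -0.34 for Cyp7b1, each with an interval that includes 0. No gene of 12945 was called (0.00%) by edgeR, although 579 had an unadjusted p under 0.05, and DESeq2 called 21 genes and no member. The LKO and HKO effects therefore were not shown to differ for any member. Per the paper, ploidy was altered in LKO but not in HKO livers, so this contrast also spans ploidy.

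The control groups of the 2 cohorts stood apart in several members, above all Cyp7a1 and Cyp8b1. Mean Cyp7a1 was 285 ± 16.0 CPM in NULL (SD, n = 3) and 72.8 ± 50.9 CPM in control mice (SD, n = 4), a ratio of 3.92. Mean Cyp8b1 was 1149 ± 160.0 CPM and 286 ± 124 CPM, a ratio of 4.02. Nr1h4, the bile acid receptor FXR, was at 142 to 154 CPM in NULL and 81.2 to 115 CPM in control mice, and Akr1d1 at 167 to 173 CPM and 77.6 to 147 CPM. In these 4 genes the lowest NULL mouse was above the highest control mouse, and in Slc27a5 the highest NULL mouse was below the lowest control mouse. Together 5 of the 10 members did not overlap, against 26.6% of 12945 genes. These values stand side by side with no test, because the cohorts differ in the virus, in the mice and in their libraries, which cannot be told apart. Reads outside genes made up 12.6 to 14.6% of all reads in NULL and 8.85 to 9.67% in control mice, with no overlap, and their part in these values was not tested.

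Cyp7a1 and its repressor Nr0b2 also varied between mice of the same group. In all 4 groups at 0 h the mouse with the lowest Cyp7a1 was the mouse with the highest Nr0b2. It was mouse 1 in control (31.8 CPM Cyp7a1 and 83.5 CPM Nr0b2), mouse 1 in LKO (34.8 and 131 CPM), mouse 2 in NULL (267 and 42.1 CPM) and mouse 1 in HKO (51.5 and 51.4 CPM). At the other end the pairing was looser, since the mouse with the highest Cyp7a1 had the lowest Nr0b2 in 1 of the 4 groups. This pattern was chosen after the values were seen and carries no test, and no correlation is given because the 2 cohorts form separate clusters.

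**Figure D2:**
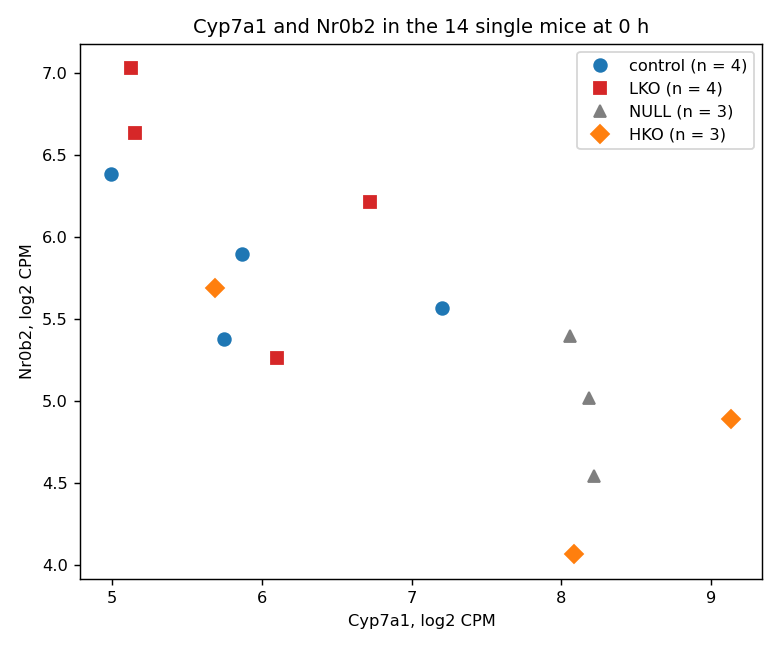
Nr0b2 (vertical axis) against Cyp7a1 (horizontal axis), both in log2 CPM, in the 14 single mice at 0 h, with 1 symbol per group. NULL and most HKO mice sit to the right, at high Cyp7a1 and low Nr0b2, and within each group the leftmost mouse is the topmost.

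After APAP 8 of the 10 members were called lower at 1 or more time points, beside 25.0% of the 13328 genes tested. At 12 h Nr0b2 and Baat were called lower, at 24 h all enzymes other than Akr1d1 were called lower, at 48 h Cyp27a1, Slc27a5 and Nr0b2 were still lower, at 72 h Fgfr4 alone was called lower, and at 96 h no member was called. Here the control and the LKO pool of a time point together were compared with the 8 mice at 0 h, with genotype in the model. No member was called higher at any time point, beside 31.6% of all genes. Changes were tested against 0 h and not between time points. The hour of collection is not given, and only the 12 h pools were not taken whole days after the dose. Time of day and APAP therefore cannot be told apart at 12 h. In whole liver, fewer hepatocytes and less RNA per hepatocyte cannot be told apart.

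Nr0b2 had the largest fitted change from 0 h of any member at any of the 5 times. It was at 3.45 CPM in the control pool and 11.0 CPM in the LKO pool at 12 h, which is 5.95% and 12.9% of the mean of the same genotype at 0 h. Both pools were below all 8 control and LKO mice at 0 h, of which the lowest was at 38.2 CPM, and the log2 fold change was -3.34 (SE 0.50, edgeR adjusted p = 0.000146). Nr0b2 then stood at 31.2 and 33.3 CPM at 24 h, 15.8 and 26.8 CPM at 48 h, 62.3 and 56.7 CPM at 72 h, and 112 and 68.5 CPM at 96 h, in the control and LKO pool in turn. Both pools thus were lowest at 12 h and lower at 48 h than at 24 h, and both lay within the range of the 0 h mice of their genotype at 72 h. The log2 fold change from 0 h at 48 h was -1.76 (SE 0.44, edgeR adjusted p = 0.0120). At 24 h the change from 0 h missed the threshold (-1.12, edgeR adjusted p = 0.0565), and it was called under 4 of 17 alternatives.

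For Cyp7a1 and Cyp8b1 the lowest pool of each genotype was that at 24 h. Cyp7a1 was at 19.4, 2.46, 15.1, 54.6 and 75.5 CPM in the control pools from 12 to 96 h and at 28.7, 27.2, 169.6, 293 and 169 CPM in the LKO pools. The control pool at 24 h held 3.38% of the control mean at 0 h, and the LKO pool at 72 h held 479.8% of the LKO mean at 0 h. Across both pools, the log2 fold change at 24 h was -2.65 (SE 0.90, edgeR adjusted p = 0.0364), and no other time point was called for Cyp7a1. Cyp8b1 was at 202, 61.9, 96.6, 73.9 and 137 CPM in the control pools and at 363, 108, 181, 221 and 336 CPM in the LKO pools. Its log2 fold change at 24 h was -1.80 (SE 0.44, edgeR adjusted p = 0.00651), and each control pool from 24 h to 72 h lay below every control mouse at 0 h.

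In the alternative route Cyp27a1 fell from 522 to 739.5 CPM in control mice to 153 CPM at 24 h and 109.6 CPM at 48 h in the control pools, and was back at 601 CPM at 96 h. In the LKO pools it reached 190.4 CPM at 24 h and was already at 384 CPM at 48 h. The shared log2 fold changes were -1.68 at 24 h (SE 0.34, edgeR adjusted p = 0.00178) and -1.18 at 48 h (SE 0.33, edgeR adjusted p = 0.0205). Cyp7b1 was called at 24 h (-2.54, SE 0.87, edgeR adjusted p = 0.0368), when the pools were at 46.2 and 81.6 CPM. At 12 h, with pools at 97.2 and 74.6 CPM, it narrowly missed (-2.17, edgeR adjusted p = 0.0542), and it was called under 6 of 17 alternatives. Given how widely Cyp7b1 varied at 0 h, the lowest single mice (73.1 and 78.7 CPM) lay close to these pools.

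Both genes of the conjugation steps were called lower at 2 of the 5 times. Baat (chr4:49489422-49506557, minus strand) was at 132, 112, 134, 207 and 312 CPM in the control pools and at 219, 185, 247, 246 and 263 CPM in the LKO pools, against 266 to 344 CPM in the 8 mice at 0 h. It was called at 12 h (-0.74, SE 0.23, edgeR adjusted p = 0.0185) and at 24 h (-0.999, SE 0.23, edgeR adjusted p = 0.00454). Slc27a5 was at 884, 520.3, 403, 652 and 1290 CPM in the control pools and at 705, 477, 691, 873 and 999 CPM in the LKO pools. It was called at 24 h (-1.003, SE 0.22, edgeR adjusted p = 0.00347) and at 48 h (-0.86, SE 0.22, edgeR adjusted p = 0.0136).

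Akr1d1 took another course. It was at 112, 40.2, 106, 133 and 165 CPM in the control pools and at 75.0, 109, 267, 313 and 262 CPM in the LKO pools. The control pool had its low point at 24 h, whereas the LKO pools from 48 h onward exceeded every LKO mouse at 0 h (106 to 144 CPM). The shared log2 fold change of 0.84 at 72 h missed the threshold (edgeR adjusted p = 0.0578). Nr1h4 (chr10:89454234-89533585, minus strand) was not called at any time, with log2 fold changes from -0.04 to 0.36 and levels of 62.8 to 152 CPM over the 10 pools. Fgfr4 (chr13:55152640-55168759, plus strand), the receptor for Fgf15, was at 75.2 and 83.3 CPM at 12 h and at 37.3 and 38.5 CPM at 72 h, where it was called lower (-0.67, SE 0.18, edgeR adjusted p = 0.0161). That call was lost under 3 of 17 alternatives, among them scaling by library size alone (adjusted p = 0.0538).

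**Figure D3:**
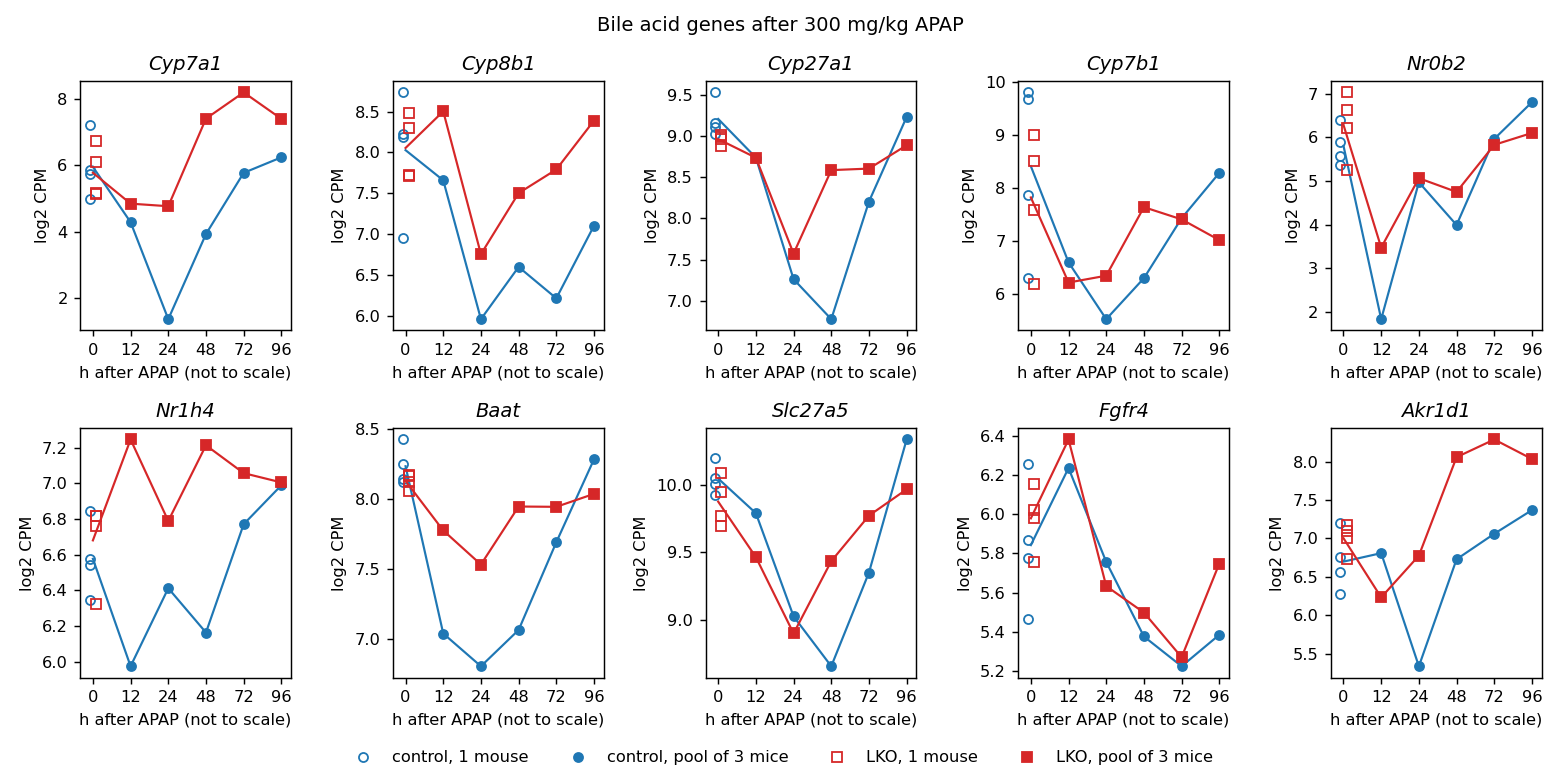
Levels of the 10 genes, in log2 CPM (vertical axis), at 0 h and from 12 to 96 h after APAP (horizontal axis, not to scale), with open symbols for single mice, filled symbols for pools of 3 mice, and lines from the mean at 0 h through the pools. Cyp7a1, Cyp8b1, Cyp27a1 and Akr1d1 reach their lowest control values at 24 or 48 h, while Nr0b2 is lowest at 12 h in both genotypes.

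The counts of called members have to be read against the breadth of the response. Members called lower were 2 of 10 at 12 h, when 14.5% of 13328 genes were called lower and 17.0% higher, and 6 of 10 at 24 h, when 12.1% were lower and 14.1% higher. They were 3 of 10 at 48 h, beside 6.71% lower and 10.0% higher, and 1 of 10 at 72 h, beside 5.81% lower and 11.0% higher. At 96 h 0.128% were lower and 0.338% higher, and no member was called by edgeR or DESeq2, although 1 member and 2112 genes had an unadjusted p under 0.05. The median log2 fold change of the members was -0.33, -1.06, -0.75, -0.37 and 0.09 from 12 to 96 h, against -0.04 to 0.00 for all genes tested. With library size in place of TMM scaling the median of all genes shifted upward by 0.14, 0.20 and 0.10 at 24, 48 and 72 h, and the higher share of all calls rose from 53.8% to 68.6%, from 59.9% to 81.1% and from 65.5% to 80.1%, while the members' medians stayed negative at -0.92, -0.58 and -0.27.

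**Figure D4:**
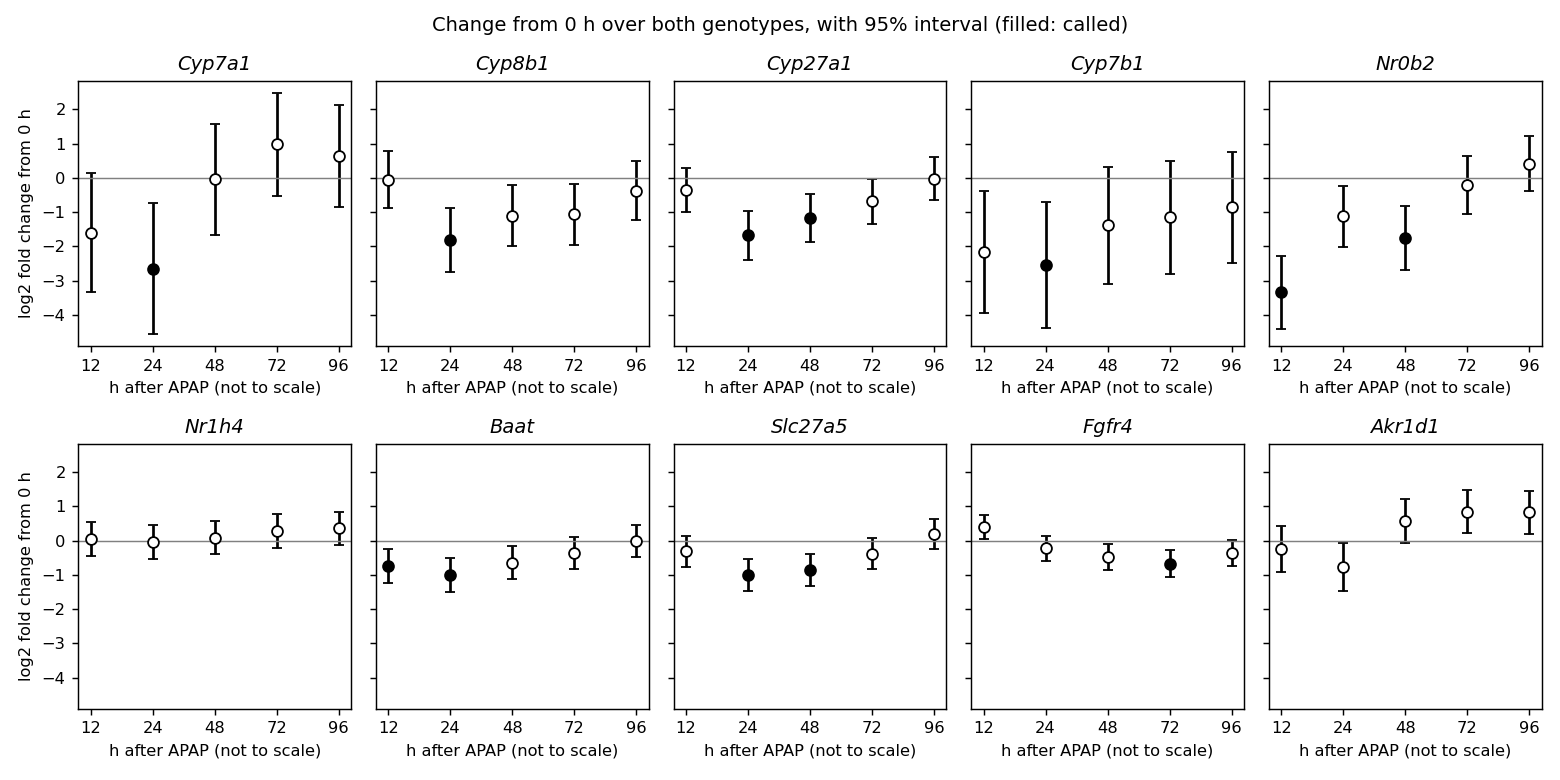
Log2 fold change from 0 h (vertical axis) for each gene at 12 to 96 h after APAP (horizontal axis, not to scale), fitted over the control and LKO libraries together, with 95% intervals and filled points where the change was called. Nr0b2 is lowest at 12 h, Cyp7a1, Cyp8b1, Cyp27a1, Cyp7b1, Baat and Slc27a5 have filled points at 24 h, and at 96 h all points are open.

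Each genotype was also read on its own against its mice at 0 h. In control pools 6, 8, 8, 5 and 1 of the 10 members lay below every control mouse at 12, 24, 48, 72 and 96 h, beside 35.0%, 32.3%, 32.7%, 34.0% and 27.9% of all 13328 genes. Members above every control mouse were 0, 0, 0, 0 and 4, beside 35.8%, 33.7%, 33.3%, 32.3% and 28.0% of all genes. In LKO pools 6, 7, 6, 3 and 2 members lay below every LKO mouse, beside 34.1%, 30.3%, 27.7%, 26.6% and 22.0% of all genes. Members above every LKO mouse were 3, 0, 3, 3 and 3, beside 31.8%, 32.2%, 28.9%, 26.6% and 21.5%. In LKO pools the counts below at 72 and 96 h and those above at 12, 48, 72 and 96 h lay near the share of all genes. The count above every control mouse at 96 h was not far from its share either. These counts rest on 1 pool each and carry no test.

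After APAP, LKO pools were compared with control pools over the 5 time points, with time as a block. The paper reports less necrosis in LKO livers and, at this dose, deaths among control mice only. Deletion, ploidy, extent of injury and survival therefore cannot be told apart in these pools. At all 5 times Cyp8b1 was higher in LKO, by 1.80-fold at 12 h, 1.74-fold at 24 h, 1.87-fold at 48 h, 2.99-fold at 72 h and 2.45-fold at 96 h. It was the only member called, with a log2 fold change of 1.07 (95% interval 0.70 to 1.45, SE 0.17, edgeR adjusted p = 0.0358), among 74 called genes of 12782 (0.579%). Cyp7a1 was also higher in LKO at all 5 times, and by more than Cyp8b1 at 24, 48 and 72 h, 1.48-fold at 12 h, 11.0-fold at 24 h, 11.2-fold at 48 h, 5.37-fold at 72 h and 2.24-fold at 96 h. The Cyp7a1 log2 fold change of 2.18 (1.26 to 3.10, SE 0.41) missed the threshold at an edgeR adjusted p of 0.0513.

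These calls depended on the settings. Cyp8b1 was lost without the 12, 24, 48 or 72 h pools (adjusted p = 0.0718, 0.0800, 0.0795 and 0.105) and without the time block (0.764), while its log2 fold change stayed between 0.96 and 1.16. Cyp7a1 was called by DESeq2 (0.00296), with library size alone (0.0443), with no filter (0.00188), with reverse strand counts (0.0312) and without the 96 h pools (0.0216). Akr1d1 (0.83, SE 0.27, edgeR adjusted p = 0.169) was called by DESeq2 alone (0.0292).

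Nr1h4 was higher in LKO at each of the 5 times as well, from 0.02 to 1.27 on the log2 scale, with a fitted log2 fold change of 0.59 (0.14 to 1.03, edgeR adjusted p = 0.177). Baat (fitted 0.46, 0.04 to 0.88), Akr1d1 and Fgfr4 (fitted 0.10, -0.20 to 0.40) were higher at 4 of 5 times each, with the exceptions at 96 h (-0.25), 12 h (-0.58) and 24 h (-0.12). Cyp27a1 and Nr0b2 were higher in LKO at 3 of 5 times and Cyp7b1 and Slc27a5 at 2 of 5. Nr0b2 was 1.64 higher in LKO at 12 h and 0.71 lower at 96 h (log2 difference -0.71), and Cyp7b1 was 1.34 higher at 48 h with a log2 difference of -1.27 at 96 h. Slc27a5 was higher at 48 and 72 h (0.78 and 0.42), with log2 differences of -0.33, -0.13 and -0.37 at 12, 24 and 96 h. Fitted over all times, none of these 4 passed (Nr0b2 0.27, -0.35 to 0.89, Cyp7b1 0.09, -0.62 to 0.80, Cyp27a1 0.41, -0.19 to 1.01, Slc27a5 0.06, -0.39 to 0.51). Members higher in LKO were 6, 8, 10, 8 and 5 of 10 from 12 to 96 h, with median log2 differences of 0.35, 0.55, 0.98, 0.34 and -0.12. The median over 12053 genes lay between -0.02 and 0.03 at each time.

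**Figure D5:**
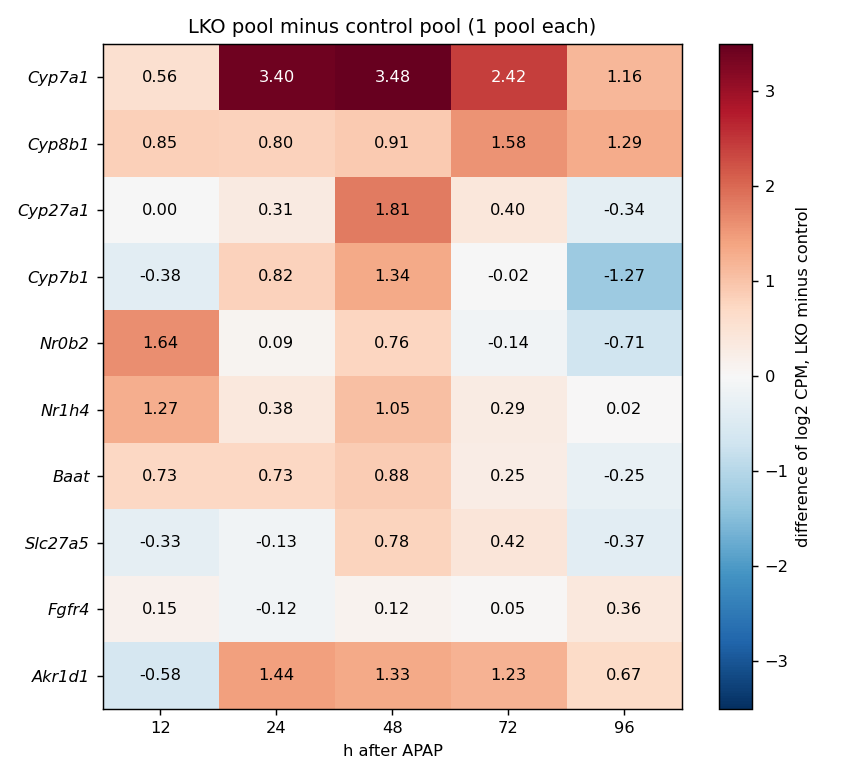
Difference between the LKO and the control pool in log2 CPM for each gene (rows) at each time after APAP (columns), 1 pool of 3 mice on each side, with red for higher in LKO. Cyp7a1 and Cyp8b1 are positive at all 5 times, the Cyp7a1 difference peaks at 3.48 at 48 h, and the 96 h column has both signs.

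Whether the LKO effect after APAP differed from that at 0 h was tested with an interaction term over the 18 libraries of the cohort. Cyp7a1 gave 2.43 on the log2 scale (0.92 to 3.94, edgeR adjusted p = 0.414), Cyp8b1 1.14 (0.32 to 1.96, edgeR adjusted p = 0.445) and Baat 0.57 (0.10 to 1.05, edgeR adjusted p = 0.474). The others were at 0.92 for Cyp7b1, 0.67 for Cyp27a1, 0.56 for Akr1d1, 0.49 for Nr1h4, 0.23 for Slc27a5, -0.01 for Fgfr4 and -0.29 for Nr0b2, each with an interval that includes 0. None of 13328 genes passed (0.00%) by edgeR, with 1285 at an unadjusted p under 0.05, and DESeq2 called 39 genes and no member. The larger effect after APAP was therefore not shown to differ from the effect at 0 h once all genes were counted.

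Injury and growth signals, several of them known to repress Cyp7a1, moved in the same livers. At 12 h 4 of 6 tested were called higher over both genotypes, the AP-1 subunits Fos (3.24) and Jun (2.89), the hormone Fgf21 (2.96) and the growth factor Hgf (1.47), on the log2 scale. At 24 h Hgf alone was called (1.03), and at 72 h Hgf (1.41) and Tgfb1 (1.06). Between genotypes over 12 to 96 h, Fos was called lower in the LKO pools (-1.48, SE 0.21, edgeR adjusted p = 0.0237), the only one of these 6. Fgf15 had 0 counts in all 24 libraries. The part of these signals in the members' values was not tested. For this list and those that follow, 14.5%, 12.1%, 6.71%, 5.81% and 0.128% of all genes were called lower from 12 to 96 h. Those called higher were 17.0%, 14.1%, 10.0%, 11.0% and 0.338%. Between LKO and control pools 0.579% of all genes were called.

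Other enzymes of the pathway followed the members in part. Of 14 tested, 4 were called lower at 12 h, among them Cyp2c70 (-3.37), which makes muricholic acids, and Akr1c6 (-2.83). At 24 h 4 were lower, led by Cyp2c70 (-1.91) and the ligase Slc27a2 (-0.92), at 48 h 4, led by Slc27a2 (-1.11) and the dehydrogenase Hsd3b7 (-1.02), and Slc27a2 alone at 72 h (-1.001). The cholesterol 25-hydroxylase Ch25h was called higher at 12, 24 and 48 h. It had 0 to 3 counts in each mouse at 0 h and reached 121 and 56 counts in the control and LKO pool at 12 h. Between genotypes none of the 14 was called after APAP, with Hsd3b7 at 0.56 (edgeR adjusted p = 0.108), and none of 13 was called at 0 h in either cohort.

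Among other regulators, 15 of 17 were tested. Prox1 (1.37), Fgfr1 (0.88) and Nfil3 (0.88) were called higher at 12 h and none lower. At 24 h 6 were lower, among them the Fgf15 co-receptor Klb (-1.16), the coactivator Ppargc1a (-1.15), Nr5a2 (LRH-1, -0.95) and Hnf4a (-0.67), the latter 2 being activators of Cyp7a1 and Cyp8b1. At 48 h 4 and at 72 h 6 were lower, with Klb and Hnf4a in both sets. None was called between genotypes, and the nearest were Nr5a2, higher in the LKO pools after APAP (0.70, edgeR adjusted p = 0.0601), and Fgfr1 (-0.92, edgeR adjusted p = 0.0620). Of 9 bile acid transporters tested, 3 were called lower and 1 higher at 12 h, 6 and 1 at 24 h, 5 and 1 at 48 h, and 1 and 0 at 72 h and at 96 h. Those lower at 12 h were the uptake carriers Slco1a1 (-2.87) and Slco1b2 (-2.32) and the bile salt export pump Abcb11 (-2.65). Those lower at 24 h included the uptake carrier Slc10a1 (-1.19). The efflux carrier Abcc4 was called higher at 12 h (1.46), 24 h (1.31) and 48 h (1.45). Between the genotypes none of 8 transporters was called after APAP or at 0 h.

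Cyp7a1 is expressed mainly around the central vein of the lobule, where APAP injury is centred. The 10 pericentral markers summed to 10828 to 13405 CPM in control and 7842 to 11652 CPM in LKO mice at 0 h. In the control pools they were at 5244, 1752, 927, 4459 and 11472 CPM from 12 to 96 h, and in the LKO pools at 4553, 3612, 3783, 7578 and 7622 CPM. The sums were thus lowest in control at 48 h and higher in LKO at 24, 48 and 72 h. Cyp2e1 made up most of the sums at 0 h, with means of 8350 CPM in control and 7015 CPM in LKO mice, so they weigh this gene most. Of the 10, 6, 8, 8, 3 and 1 were called lower from 12 to 96 h and 2, 0, 0, 0 and 0 higher, and none was called between genotypes (median log2 fold change 0.66 after APAP). Periportal markers were called lower in 2, 5, 2, 2 and 0 of 9 and higher in 1, 1, 1, 1 and 0. Hepatocyte markers were called lower in 2, 1, 1, 0 and 0 of 9 and higher in 1, 2, 0, 0 and 0. Beside these stand 14.5%, 12.1%, 6.71%, 5.81% and 0.128% of all genes called lower and 17.0%, 14.1%, 10.0%, 11.0% and 0.338% called higher. The hepatocyte counts lay near these shares. The share of these shifts in the members' values was not tested.

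The clock genes were called lower in 3, 7, 6, 2 and 1 of 15 from 12 to 96 h, led by Dbp at 12 h (-2.90), and higher in 3, 1, 1, 0 and 0, led by Arntl at 12 h (1.83). None of 15 was called between LKO and control pools. Markers of other cells moved too. Macrophage markers were called higher in 1, 3, 4, 5 and 2 of 10 and lower in 1, 3, 0, 0 and 0, and ranged in sum from 161 to 894 CPM over the pools, against 176 to 450.4 CPM in control and LKO mice at 0 h. Stellate cell markers were called higher in 0, 2, 4, 7 and 1 of 8 and lower in 3, 2, 0, 0 and 0. Neutrophil markers were higher in 4, 4, 3, 2 and 0 of 6 and lymphocyte markers in 0, 0, 1, 0 and 0 of 5, with none of either lower. Cholangiocyte markers were higher in 1, 1, 2, 0 and 0 of 6 and lower in 0, 0, 1, 1 and 0. Endothelial markers were higher in 2, 1, 1, 0 and 0 of 8 and lower in 1, 3, 2, 3 and 0, so that more were lower than higher from 24 to 72 h. Of all genes, 14.5%, 12.1%, 6.71%, 5.81% and 0.128% were called lower from 12 to 96 h and 17.0%, 14.1%, 10.0%, 11.0% and 0.338% higher. The clock counts at 12 h lay near these shares. None of these 6 cell type lists had a called gene between genotypes, at 0 h in either cohort or after APAP. Of all genes, 0.00% (LKO) and 0.960% (HKO) were called at 0 h and 0.579% after APAP, so lists this short would rarely hold a call.

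The genes whose log2 CPM followed a member most closely over the 24 libraries were sought among 9505 genes with a mean of at least 5 CPM. For Cyp7a1 they included Prkacb, Cdh2, Zmat1 and Ireb2, with Pearson r from 0.855 to 0.874. For Cyp8b1 they were Insr, Ppap2b, Inca1, Tshz1 and Ncor1, led by Insr at 0.94. For Cyp7b1 they were C8b, Sec63, C9, Rarres1 and Ugt2b38, led by C8b at 0.94, and for Nr0b2 they were Pdzk1, Timmdc1, Unc93b1, Emc9 and Adh4, led by Pdzk1 at 0.90. These values describe 24 libraries that share cohort, APAP and depth, and carry no test.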

How the data were processed

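Per the labels, poly(A) libraries of whole mouse liver were sequenced, and the authors trimmed the reads with Trimmomatic and aligned them to mm10 with STAR. The deposited values are raw counts per gene (column 2, both strands summed) of 24411 genes in 24 libraries. The annotation used for counting is not given in the sources used here. The 4 summary rows of each file entered neither library sizes nor tests. Relative to all reads of a library they held 7.29 to 14.7% (outside genes), 4.69 to 8.06% (several positions), 2.63 to 20.6% (not aligned) and 1.51 to 2.01% (more than 1 gene).

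From the counts, levels were computed as TMM-scaled CPM (log2 with a prior count of 2), with exon lengths from GENCODE vM21 (GRCm38) for levels per kb. Differences were tested over all genes with the edgeR 4.0.16 quasi-likelihood test in R 4.3.3, after filterByExpr by genotype and phase (0 h or after APAP). Tests were 2-sided, and a gene was called at a Benjamini-Hochberg adjusted p under 0.05 if it also changed by 1.5-fold or more. At 0 h a replicate is a mouse. After APAP, 1 pool of 3 mice stands for each genotype and time, so that no spread between mice is measured there. Alternatives were DESeq2 1.42.0, RLE or library size scaling, no low-count filter, reverse strand counts, other blocks and leaving out libraries. The filter by design matrix was added after seeing the data. Intervals are from edgeR and cover the spread between libraries.

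The members and all gene lists were chosen with earlier results of these data known. All members are named in each comparison. In the lists of other enzymes, other regulators and transporters, called genes and up to 4 with the largest changes may be named, and zonation, clock, repressing signal and cell type lists are given by counts with up to 4 examples. Genes Tf, Ly6g and Diet1 were not found by symbol. A total of 6 members had a promoter in the RefSeq table. One of the genes that followed Cyp7a1 most closely is not reported here.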

Additional observations from a re-analysis of the deposited data

Results flagged for a closer look

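Nr1h4 in the LKO mice at 0 h was singled out because 1 of the 4 mice lay apart from the others. LKO mouse 1 had 80.1 CPM, while the other 3 had 108 to 113 CPM, and the gap divided by the range was 0.864, above Dixon's 95% critical value for 4 samples. Of 20 groups of mice checked in this way (10 members in control and LKO), this was the only 1 past the critical value, and chance gives about 1 in 20. Without this mouse no member was called in LKO against control at 0 h either.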

How the results depend on the processing

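The number of members called stayed within 1.5 times in 149 of 169 recomputed counts. Of 1690 recomputed log2 fold changes, 0 called values changed sign, 21 lost a call and 28 gained it. Another 45 were rated as moved in value and 1596 as the same. In HKO against NULL, DESeq2, no filter and the replicate block each gave 1 member (Akr1d1) in place of 0. In LKO against control after APAP, DESeq2 gave 3, library size alone, no filter and reverse strand counts gave 2 each, and no time block gave 0, in place of 1. From 0 h, DESeq2 gave 5 at 48 h in place of 3 and 3 at 72 h in place of 1, control libraries alone gave 0 at 72 h, and LKO libraries alone gave 1 at 12 h, 1 at 24 h and 0 at 48 h, where the 1 pool of a time is assumed to vary like the 4 mice. Leaving out 1 library or time point gave 0 to 2 after APAP, 2 to 3 at 12 h, 5 to 7 at 24 h, 3 at 48 h, 1 to 2 at 72 h and 0 in all other comparisons. At 24 h Cyp7a1 was lost without LKO mouse 3 (adjusted p = 0.0503) and Cyp7b1 without LKO mouse 1 (0.0506), and at 72 h Akr1d1 was gained without control mouse 4 (0.0269). The cause was not tested.

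Over all genes, the 119 called in HKO against NULL became 331 with DESeq2, 255 with no filter and 263 with the replicate block, and the 74 called in LKO against control after APAP became 606, 337 with no filter, 42 with library size, 0 with no time block and 9 to 177 without 1 time point. Library size scaling raised the higher share of calls from 43.7% to 56.7% and from 43.2% to 71.4% in these 2, and moved the median of all genes by 0.13 in LKO against control at 0 h, where 6 in place of 4 members were then higher. The replicate numbers did not pair the mice: same-numbered deviations correlated at -0.49 to 0.30, and 1 of 7 was highest with its own number. With the replicate block 0 members were called in LKO against control and 0 in the difference between cohorts. The lowest count of a member in any library was 41 reads (Cyp7a1, control pool at 24 h).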
